A study of Homo sapiens with 9 samples.

Results

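The genes described here are 10 markers of epithelial identity and of dedifferentiated liver cells, chosen by symbol: KRT8, KRT18, KRT19, EPCAM, CDH1, VIM, CLDN1, SOX9, CD24 and SPP1. They were looked up by Entrez gene number in a count table of 12798 features. Of the 10, 9 had a row there, and all 9 had enough reads to be tested among 11788 features. VIM, which encodes the intermediate filament protein vimentin of mesenchymal cells, had no row and is not analysed here.

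HepG2 is a human liver cancer cell line used as a model of hepatocytes. The cells carried lentiCRISPRv2, a lentiviral vector that delivers Cas9 with a guide RNA, against AAVS1 in the control (sgCtrl, labelled sgAAVS168) or against KEAP1 with guide sequence 1 (sgKeap1-1) or 2 (sgKeap1-2). All were selected with puromycin and collected 48 h after seeding, with 3 libraries in each of the 3 groups. KEAP1 is the adaptor that marks the transcription factor NRF2 for degradation, so the comparison asks what follows at the RNA level when KEAP1 is cut. Each guide stands for 1 transduced population, so an effect of the guide and one of its population cannot be told apart. The labels do not say whether libraries of a group came from separate cultures, and the p-values then measure only the spread between these libraries. In pooled RNA, more cells that express a gene and more RNA per cell cannot be told apart.

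Simple epithelia hold their shape with filaments built of a type II keratin (KRT8) paired with a type I keratin (KRT18 or KRT19). Hepatocytes are known for KRT8 and KRT18, whereas bile duct cells and liver progenitors also make KRT19, EPCAM, SOX9, CD24 and SPP1. CDH1 (E-cadherin) joins neighbouring epithelial cells at adherens junctions, and CLDN1 (claudin-1) seals tight junctions.

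The libraries held 3051755 to 4793757 counted reads. QuantSeq reads the 3′ end of each transcript, and values are given as CPM, read counts scaled to a common total and corrected by TMM factors. KEAP1 mRNA, the targeted transcript, lay at 62.2, 87.7 and 84.2 CPM in sgCtrl, at 63.1, 61.6 and 52.7 CPM in sgKeap1-1 and at 80.8, 84.4 and 72.9 CPM in sgKeap1-2, so its level did not check the labels (edgeR adjusted p = 0.218 and 0.948). The NRF2 target NQO1 rose from 513 to 1336 CPM with sgKeap1-1 and to 1715 CPM with sgKeap1-2, without overlap between KEAP1 KO and sgCtrl libraries, and of 9 tested NRF2 targets 8 passed upward with the first guide and 9 with the second. The hepatocyte markers that define the line were present in every library, with the 28 of 30 in the table summing to 28932 to 54241 CPM. Of 14 markers of blood, endothelial and stromal cells, 3 had a row (CD68, PDGFRB and COL1A1), and they summed to 9.84 to 20.1 CPM.

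**Figure D1:**
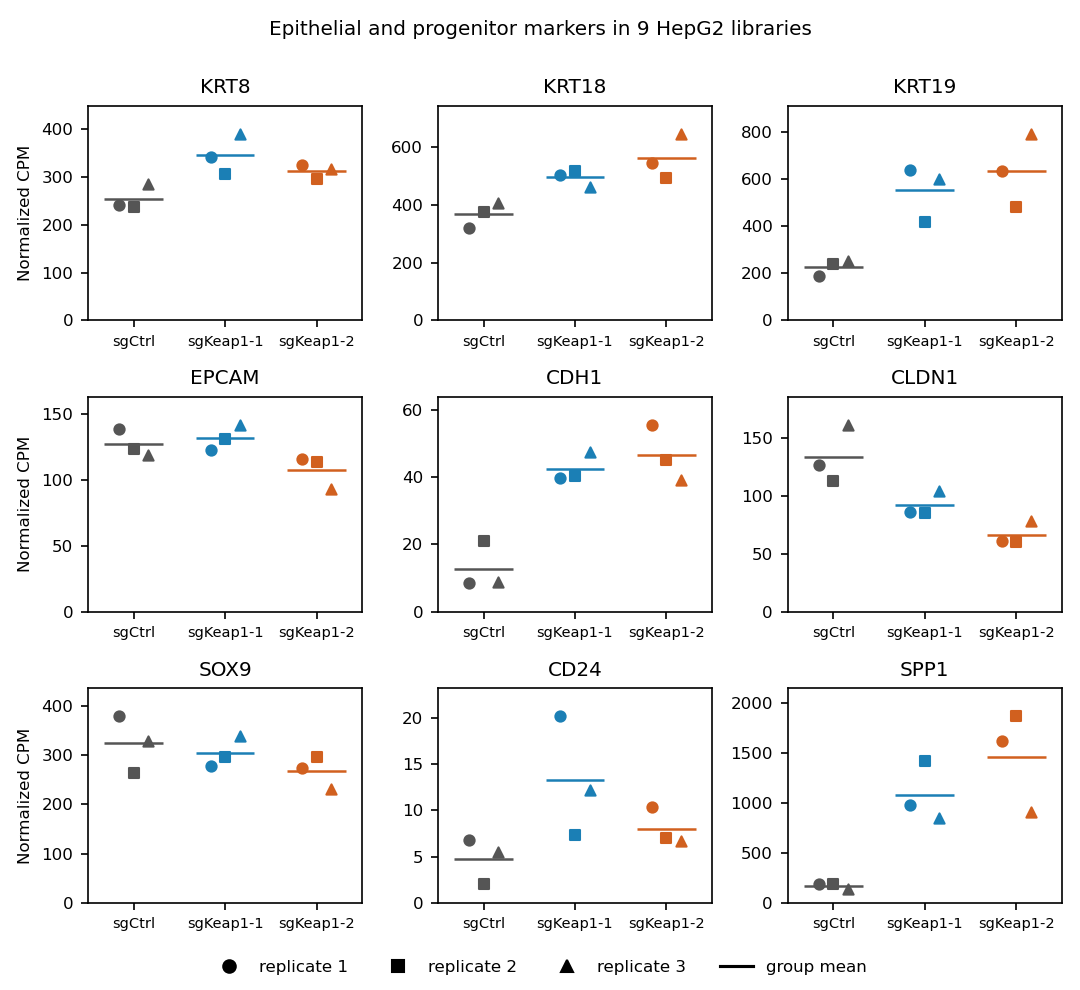
Normalized CPM (vertical axes, linear from 0) of the 9 markers in each library, by group, with a marker shape for each replicate number and a line at the group mean. SPP1, KRT19, CDH1, KRT18 and KRT8 lie higher in all 6 KEAP1 KO libraries than in all 3 sgCtrl libraries. CLDN1 lies lower in all 6, and EPCAM and SOX9 overlap between sgKeap1-1 and sgCtrl. The share of all features that separate in this way is not given here.

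With sgKeap1-1, 3 of the 9 markers (KRT19, CDH1 and SPP1) were up-regulated and 0 were down-regulated at an edgeR adjusted p under 0.05. With sgKeap1-2, 4 (KRT18 in addition) were up-regulated and 1 (CLDN1) was down-regulated. Among all tested features the sgKeap1-1 comparison called 3.94%, of which 2.66% higher and 1.28% lower, and the sgKeap1-2 comparison called 10.2%, of which 5.71% higher and 4.5% lower. The median log2 fold change of the markers was 0.44 in the former and 0.61 in the latter, where all tested features had medians of 2e-04 and -0.01. Libraries of the same replicate number also share the start of their sample description, and what that start marks is not stated. Between sgCtrl and sgKeap1-1 all 3 same-numbered pairs deviated together (correlations 0.156 to 0.366), whereas between sgCtrl and sgKeap1-2 the lowest was -0.0266. For sgKeap1-1 the values with replicate number as a block are therefore given beside those without it wherever the call differs. Of the 9 tested NRF2 targets, 9 passed upward for sgKeap1-1 with the block, against 8 without it. With the block, 7 of the 9 markers were called for sgKeap1-1, 6 higher (KRT8, KRT18 and CD24 in addition) and 1 lower (CLDN1), where 8.38% of all tested features were called, 4.88% higher and 3.5% lower. Both comparisons use the same 3 sgCtrl libraries. The genes were picked with earlier results of these data known, so these counts are a description of the list.

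Upstream sequence was printed for the marker that rose most and the one that fell, from a table of RefSeq promoters (GRCh38.p14) in which 5 of the 10 markers were matched (KRT8, VIM, CLDN1, CD24 and SPP1). Each run covers the 250 bases before the annotated start, read in the direction of the gene, and capitals mark the E-box letters CACCTG or their reverse complement, the kind of site that repressors of epithelial genes such as SNAI1 are known to bind.
SPP1 (chr4:87975464-87975713, plus strand): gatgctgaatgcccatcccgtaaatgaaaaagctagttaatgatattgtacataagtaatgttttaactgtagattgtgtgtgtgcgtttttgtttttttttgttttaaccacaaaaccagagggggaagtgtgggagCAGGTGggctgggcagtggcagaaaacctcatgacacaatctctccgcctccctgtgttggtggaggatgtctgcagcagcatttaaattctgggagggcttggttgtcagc
CLDN1 (chr3:190322447-190322696, minus strand): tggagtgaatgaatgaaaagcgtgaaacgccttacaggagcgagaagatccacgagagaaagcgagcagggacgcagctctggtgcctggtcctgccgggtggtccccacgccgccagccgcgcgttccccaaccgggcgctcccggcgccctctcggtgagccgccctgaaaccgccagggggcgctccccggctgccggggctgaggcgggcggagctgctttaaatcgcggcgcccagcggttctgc
The letters searched on both strands were TGACNNNGC (the core of the antioxidant response element that NRF2 binds), TGANTCA (the AP-1 site, which can overlap the former) and CACCTG. SPP1 held 1 CACCTG match, which reads CAGGTG on its sense strand from base -112 to -107 before the start, and CLDN1, KRT8 and CD24 held 0 matches of any of them. Among 35116 promoters of the same length, 10.9% held TGACNNNGC, 6.57% held TGANTCA and 17.5% held CACCTG.

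SPP1 (Entrez gene 6696, chromosome 4) encodes osteopontin, a secreted glycoprotein that binds integrins and CD44. It changed most of the 9 markers. Its CPM were 190, 192 and 136 in sgCtrl, 982, 1415 and 851 in sgKeap1-1 and 1614, 1866 and 904 in sgKeap1-2. The lowest KEAP1 KO library was 851 CPM and the highest sgCtrl library 192 CPM. The mean rose from 172 ± 31.8 CPM to 1082 ± 295 CPM with sgKeap1-1 and 1461 ± 499 CPM with sgKeap1-2 (SD, n = 3 libraries each). The log2 fold changes were 2.65 (SE 0.29, edgeR adjusted p = 0.000538) and 3.08 (SE 0.30, adjusted p = 0.000101), or 6.28-fold and 8.47-fold. The spread between KEAP1 KO libraries was wide, and the third sgKeap1-2 library lay below the first and the second sgKeap1-1 libraries. SPP1 also carried much of the summed change of the list. The 9 markers took 0.153% to 0.171% of counted reads in sgCtrl and 0.302% to 0.374% in the KEAP1 KO libraries, and without SPP1 the shares were 0.134% to 0.157% and 0.175% to 0.216%.
A list of 11 genes held SPP1 and genes for partners of osteopontin and of CD24, but not CD24 itself. Of these 5 had a row and 4 were tested, namely SPP1, ITGAV, ITGB1 and ITGB5. ITGAV, the integrin αV subunit that pairs into osteopontin receptors, rose with sgKeap1-2 from 42.9 ± 7.80 to 68.5 ± 15.7 CPM (SD, n = 3, log2 fold change 0.68, edgeR adjusted p = 0.0347), and was at 63.0 ± 7.47 CPM with sgKeap1-1 (adjusted p = 0.139, or 0.0154 with the replicate block). The sgKeap1-2 call of ITGAV was lost with any of 5 libraries left out, the first and the third of sgCtrl, the first of sgKeap1-1 and the first and the second of sgKeap1-2 (edgeR adjusted p = 0.0522 to 0.153), by limma-voom (0.053) and with only the 2 groups compared (0.0544). ITGB1 and ITGB5 passed in neither comparison without the block. The median log2 fold change of the 4 genes, SPP1 included, was 0.47 and 0.57.

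The keratins did not move alike. KRT19 (Entrez gene 3880, chromosome 17), a type I keratin of bile duct and progenitor cells, was at 190, 239 and 254 CPM in sgCtrl, at 640, 419 and 602 CPM in sgKeap1-1 and at 635, 482 and 792 CPM in sgKeap1-2. The lowest KEAP1 KO library, the second of sgKeap1-1, was still above the highest sgCtrl library. KRT19 rose 2.44-fold with sgKeap1-1 (log2 fold change 1.28, SE 0.20, edgeR adjusted p = 0.00203) and 2.80-fold with sgKeap1-2 (1.49, SE 0.20, adjusted p = 0.000342).
KRT18 (Entrez gene 3875, chromosome 12), the usual type I keratin of hepatocytes, was at 318, 374 and 406 CPM in sgCtrl, at 504, 516 and 462 CPM in sgKeap1-1 and at 543, 492 and 645 CPM in sgKeap1-2. Neither KEAP1 KO group overlapped sgCtrl. The rise passed the threshold with sgKeap1-2 (log2 fold change 0.61, SE 0.13, edgeR adjusted p = 0.00794), though not without the first sgCtrl library (0.52, adjusted p = 0.0545). With sgKeap1-1 the log2 fold change was 0.43 (SE 0.13, adjusted p = 0.096), and with the replicate block it passed (0.44, adjusted p = 0.0189).
KRT8 (Entrez gene 3856, chromosome 12), the type II partner of both, was at 242, 238 and 285 CPM in sgCtrl, at 343, 307 and 391 CPM in sgKeap1-1 and at 324, 297 and 316 CPM in sgKeap1-2. Its groups did not overlap sgCtrl either, but neither comparison passed the threshold without the block, with log2 fold changes of 0.44 (SE 0.13, edgeR adjusted p = 0.0678) and 0.29 (SE 0.13, adjusted p = 0.176). KRT8 passed for sgKeap1-1 with the replicate block (0.44, adjusted p = 0.0087).

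Because keratins 8 and 18 pair in one filament, their counts were set against each other within each library, a ratio that needs no scaling. KRT8 to KRT18 was 0.699 ± 0.0617 in sgCtrl, 0.707 ± 0.127 in sgKeap1-1 and 0.564 ± 0.0639 in sgKeap1-2 (SD, n = 3 libraries each). All 3 sgKeap1-2 ratios (0.490 to 0.604) lay below all 3 sgCtrl ratios (0.636 to 0.760), a difference of -0.135 (two-sided exact permutation test, p = 0.1, the smallest p that 3 against 3 libraries allow). For sgKeap1-1 the same exact test gave p = 1, and its 3 ratios ran from 0.596 to 0.845. KRT19 to KRT18 was 0.595 to 0.639 in sgCtrl, 0.814 to 1.30 in sgKeap1-1 and 0.981 to 1.23 in sgKeap1-2, without overlap with sgCtrl. This second ratio was added after the values had been seen and was not tested.

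**Figure D2:**
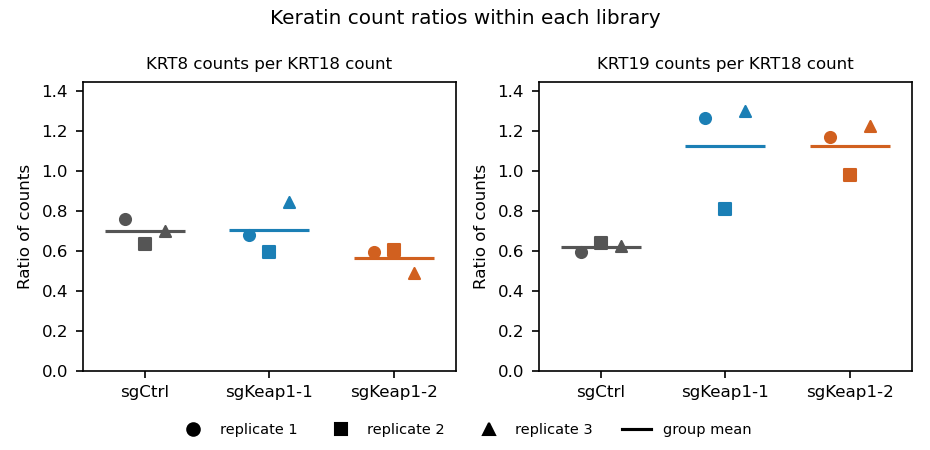
Ratio of KRT8 to KRT18 counts (left) and of KRT19 to KRT18 counts (right) within each library, by group, with a line at the group mean and a shape for each replicate number. The left ratio stays between 0.490 and 0.845, whereas the right ratio is at most 0.639 in sgCtrl and at least 0.814 in the KEAP1 KO libraries.

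Copies limit what the counts of KRT8, KRT18, KRT19 and CD24 can show. RefSeq lists 52 pseudogenes of KRT8, 68 of KRT18, 5 of KRT19 and 5 of CD24, and how reads that match several of them were counted is not given in the sources used here. In the count table, 2 KRT8 pseudogenes held 99 reads over the 9 libraries against 10663 for KRT8, and 1 KRT18 pseudogene held 21 against 16628 for KRT18. The annotated spans of KRT8 and KRT18 also overlap, and the strand setting of the counting is not given either.

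Of 27 genes of intermediate filaments and the plakins that anchor them, the 3 keratins included, 15 were tested. The sgKeap1-1 comparison called 3 higher (KRT19, NES and EVPL), the sgKeap1-2 comparison 5 (PLEC and KRT18 in addition), and neither called any lower. These were 20% and 33.3% of the 15, where 3.94% and 10.2% of all tested features were called. With the replicate block the sgKeap1-1 comparison called 5 higher and 1 lower (LMNB1, adjusted p = 0.0365), and without the third sgKeap1-2 library 6 higher. NES (nestin, a filament protein of progenitor cells) rose from 33.2 ± 3.93 CPM to 65.6 ± 9.90 and 76.8 ± 8.01 CPM (SD, n = 3), log2 fold changes of 0.98 (edgeR adjusted p = 0.00199) and 1.21 (adjusted p = 0.000168). EVPL (envoplakin) rose from 9.33 ± 1.70 CPM to 17.9 ± 3.81 and 21.5 ± 1.69 CPM (SD, n = 3, adjusted p = 0.0351 and 0.0037 from edgeR). The sgKeap1-1 call of EVPL was lost with any of 6 libraries left out, each of sgCtrl, the first and the second of sgKeap1-1 and the first of sgKeap1-2 (edgeR adjusted p = 0.0549 to 0.16), and by limma-voom (0.0567). The nuclear lamins LMNA, LMNB1 and LMNB2 passed in neither comparison without the block.

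The adhesion genes went in different directions. CDH1 (Entrez gene 999, chromosome 16) was at 8.59, 21.1 and 8.81 CPM in sgCtrl, at 39.8, 40.3 and 47.5 CPM in sgKeap1-1 and at 55.6, 45.2 and 39.2 CPM in sgKeap1-2. The second sgCtrl library had the highest control level, and all 6 KEAP1 KO libraries lay above it. CDH1 rose 3.38-fold with sgKeap1-1 (log2 fold change 1.76, SE 0.29, edgeR adjusted p = 0.00225) and 3.70-fold with sgKeap1-2 (1.89, SE 0.29, adjusted p = 0.000708). The control level rested on 32 to 63 counts a library.
CLDN1 (Entrez gene 9076, chromosome 3) was at 127, 113 and 161 CPM in sgCtrl, at 86.4, 85.6 and 105 CPM in sgKeap1-1 and at 61.0, 60.1 and 78.0 CPM in sgKeap1-2. All 6 KEAP1 KO libraries lay below all 3 sgCtrl libraries, and those of sgKeap1-2 lay lowest. The fall passed the threshold with sgKeap1-2 (log2 fold change -1.01, SE 0.16, edgeR adjusted p = 0.00102), and with sgKeap1-1 the log2 fold change was -0.54 (SE 0.16, adjusted p = 0.0889). CLDN1 also passed for sgKeap1-1 with the replicate block (-0.53, adjusted p = 0.00515). CLDN1 overlaps CLDN16 in the RefSeq annotation, and CLDN16 had no row in the table.
EPCAM (Entrez gene 4072, chromosome 2), a homophilic adhesion protein of progenitor and tumour epithelia, was at 138, 123 and 119 CPM in sgCtrl, at 123, 131 and 141 CPM in sgKeap1-1 and at 116, 114 and 93.0 CPM in sgKeap1-2. The sgKeap1-1 libraries overlapped sgCtrl (log2 fold change 0.05, 95% interval -0.23 to 0.34, edgeR adjusted p = 0.926). Those of sgKeap1-2 lay below it by little (-0.24, 95% interval -0.52 to 0.04, adjusted p = 0.315).

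Among 37 genes of epithelial junctions, 30 were tested. With sgKeap1-1, 2 were up-regulated (CDH1 and CLDN4) and 1 was down-regulated (CLDN14). With sgKeap1-2 the same 2 were up-regulated and 6 were down-regulated (CLDN14, TJP3, CLDN1, MARVELD3, AFDN and CXADR). The 6 became 2 without the first or the third sgCtrl library and 3 without the second or the third sgKeap1-2 library. For sgKeap1-1, 3 were lower without the third sgKeap1-2 library, and with the replicate block 3 were higher (PERP in addition) and 3 lower (MARVELD3 and CLDN1 in addition). CLDN4, another claudin, ran opposite to CLDN1: it rose from 64.0 ± 11.3 CPM to 159 ± 19.98 and 215 ± 14.9 CPM (SD, n = 3), log2 fold changes of 1.31 (SE 0.15, edgeR adjusted p = 0.000111) and 1.74 (SE 0.15, adjusted p = 3.81e-06). CLDN14 fell from 10.2 ± 3.74 CPM to 2.40 ± 0.752 and 1.26 ± 0.564 CPM (SD, n = 3, log2 fold changes -2.04 and -2.95, adjusted p = 0.0078 and 0.000564 from edgeR). MARVELD3, a tight junction membrane protein, was at 31.1 ± 9.30 CPM in sgCtrl and fell to 16.97 ± 2.90 CPM with sgKeap1-2 (log2 fold change -0.89, edgeR adjusted p = 0.0291), a call lost without the first or the third sgCtrl or the second sgKeap1-2 library (adjusted p = 0.0518 to 0.184). With sgKeap1-1 MARVELD3 was at 20.07 ± 3.945 CPM (edgeR adjusted p = 0.189, or 0.04002 with the replicate block). Of the 30 genes, 10% were called with sgKeap1-1 and 26.7% with sgKeap1-2, where 3.94% and 10.2% of all tested features were called. The median log2 fold change of the 30 genes was 0.05 with sgKeap1-1 and 0.01 with sgKeap1-2, so the calls in both directions left the middle of the list near that of all features.
CDH2 (N-cadherin), the cadherin that replaces CDH1 in mesenchymal cells and that hepatocytes also make, was at 199 ± 15.7, 196 ± 13.9 and 172 ± 25.8 CPM (SD, n = 3) in sgCtrl, sgKeap1-1 and sgKeap1-2, and passed in neither comparison (edgeR adjusted p = 0.969 and 0.402).
Of 18 regulators and effectors of epithelial identity, 8 were tested, 0 passed with sgKeap1-1 (4 had an unadjusted p under 0.05, and DESeq2 called KLF5) and 3 with sgKeap1-2. The 3 were 37.5% of the tested genes, where 10.2% of all tested features were called with sgKeap1-2. With the replicate block 3 passed for sgKeap1-1, KLF5 and SPINT1 higher and MAL2 lower. SPINT1 had at most 3 counts in a sgCtrl library and enough reads to be tested only through KEAP1 KO libraries, so it could only be called higher. KLF5, an epithelial transcription factor, rose with sgKeap1-2 from 6.12 ± 2.75 to 24.2 ± 9.79 CPM (SD, n = 3, edgeR adjusted p = 0.0359). It was at 18.3 ± 12.2 CPM with sgKeap1-1 (edgeR adjusted p = 0.149). GRHL1, another such factor, fell with sgKeap1-2 from 18.3 ± 2.53 to 8.93 ± 3.38 CPM (SD, n = 3, edgeR adjusted p = 0.0344). MAL2, a protein of apical membrane traffic, fell with sgKeap1-2 from 244 ± 8.62 to 159 ± 7.38 CPM (SD, n = 3, edgeR adjusted p = 0.00401). With sgKeap1-1, GRHL1 was at 11.8 ± 2.52 CPM and MAL2 at 186 ± 21.15 CPM (edgeR adjusted p = 0.311 and 0.0963). KLF5 was not called with sgKeap1-2 without the first or the third sgCtrl or the first or the second sgKeap1-2 library (adjusted p = 0.093 to 0.13), nor GRHL1 without any one sgCtrl library or the third sgKeap1-2 library (0.0655 to 0.11).

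SOX9 (Entrez gene 6662, chromosome 17), the transcription factor of bile duct and progenitor cells, was at 379, 264 and 328 CPM in sgCtrl, at 277, 297 and 339 CPM in sgKeap1-1 and at 273, 296 and 231 CPM in sgKeap1-2. The sgCtrl libraries spanned 264 to 379 CPM and both KEAP1 KO groups overlapped them, with only the third sgKeap1-2 library (231 CPM) below them. Its log2 fold changes were -0.09 (95% interval -0.40 to 0.23, edgeR adjusted p = 0.877) and -0.28 (95% interval -0.60 to 0.04, adjusted p = 0.294).
CD24 (Entrez gene 100133941, chromosome 6), a small glycosylated surface protein of progenitor cells, was the least counted marker, with 6 to 26 counts in a sgCtrl library. Its CPM were 6.77, 2.01 and 5.51 in sgCtrl, 20.2, 7.29 and 12.2 in sgKeap1-1 and 10.3, 6.98 and 6.70 in sgKeap1-2. The sgKeap1-1 libraries lay above all sgCtrl libraries and the sgKeap1-2 libraries overlapped them. Neither comparison passed the threshold without the block, with log2 fold changes of 1.43 (95% interval 0.52 to 2.34, edgeR adjusted p = 0.0876) and 0.70 (95% interval -0.26 to 1.65, adjusted p = 0.394). CD24 passed for sgKeap1-1 with the replicate block (1.44, adjusted p = 0.00339). Without the first sgKeap1-1 library and without the block, the log2 fold change was 0.98 (adjusted p = 0.367).

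**Figure D3:**
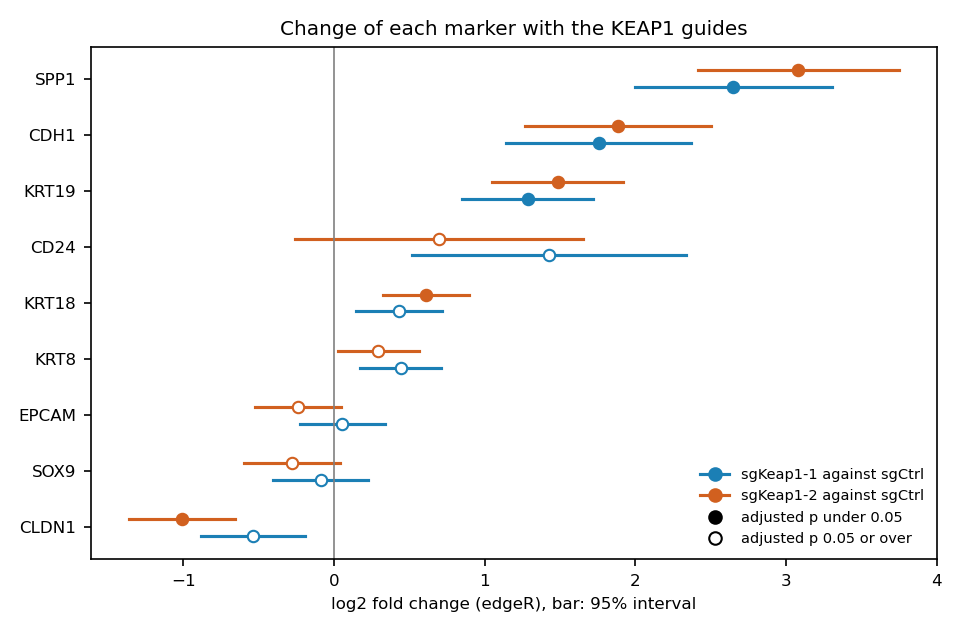
Log2 fold change of each marker (horizontal axis) with sgKeap1-1 and sgKeap1-2 against sgCtrl from the edgeR fit of 9 libraries, with bars for 95% intervals and filled points where the adjusted p without the block is under 0.05. SPP1, CDH1 and KRT19 are filled for both guides, KRT18 and CLDN1 for sgKeap1-2 alone, and the intervals of EPCAM and SOX9 include 0 for both guides.

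Genes of bile duct cells, progenitors and foetal liver split as well. Of 43 genes, a list that holds KRT19, SPP1, SOX9, EPCAM and CD24, 31 were tested. Of these markers, SOX9, EPCAM and CD24 passed with neither guide without the block. The sgKeap1-1 comparison called 5 higher and 2 lower, and the sgKeap1-2 comparison 6 higher and 5 lower (3 lower without the first sgCtrl library). These were 22.6% and 35.5% of the tested genes, where 3.94% and 10.2% of all tested features were called. Both counts of higher genes include NOTCH3, which had enough reads to be tested only through KEAP1 KO libraries and so could only be called higher. For sgKeap1-1, DESeq2 called 8 higher, and with the replicate block 9 were higher and 3 lower. SOX4, a relative of SOX9 active in bile duct development, rose from 61.1 ± 7.78 CPM to 205 ± 45.5 and 278 ± 30.3 CPM (SD, n = 3), log2 fold changes of 1.75 (SE 0.17, edgeR adjusted p = 3.11e-05) and 2.19 (SE 0.18, adjusted p = 2.13e-06). NOTCH3, a Notch receptor, had at most 1 count in a sgCtrl library and reached 16.8 ± 6.23 and 23.1 ± 5.06 CPM (SD, n = 3). Taking 3 counts in the smallest sgCtrl library as the limit, sgKeap1-1 gave a level at least 16.7-fold higher. The corresponding bound for sgKeap1-2 was at least 23.04-fold higher. The foetal liver protein AFP fell from 5934 ± 773 CPM to 2464 ± 569 and 1139 ± 225 CPM (SD, n = 3, log2 fold changes -1.27 and -2.38, adjusted p = 0.000739 and 2.23e-06 from edgeR). ONECUT1 (HNF6), a transcription factor of early liver and bile duct, fell from 22.9 ± 0.683 to 8.53 ± 2.17 and 6.16 ± 0.366 CPM (SD, n = 3, edgeR adjusted p = 0.00161 and 0.000103). PROM1 (CD133), a surface protein of progenitor cells, was at 12.0 ± 2.07 CPM in sgCtrl and fell to 3.77 ± 0.481 CPM with sgKeap1-2 (SD, n = 3, edgeR adjusted p = 0.00151). With sgKeap1-1 PROM1 was at 7.411 ± 1.415 CPM (edgeR adjusted p = 0.194).
Among 38 genes of mesenchymal cells and of the epithelial-mesenchymal transition, 18 were tested. The sgKeap1-1 comparison called 4 higher (FN1, LGALS1, MMP2 and MMP14) and 1 lower (TAGLN). The sgKeap1-2 comparison called 6 higher (COL6A1 and S100A4 in addition) and 1 lower. These were 27.8% and 38.9% of the 18, where 3.94% and 10.2% of all tested features were called. MMP2 had at most 2 counts in a sgCtrl library, so it could only be called higher. The median log2 fold change of the 18 genes was 0.26 and 0.42, where all tested features had medians of 2e-04 and -0.01. The 4 higher with sgKeap1-1 became 1 without the first or the third sgCtrl or the first sgKeap1-1 library, and 2 without the second sgCtrl, the second sgKeap1-1 or the first sgKeap1-2 library. SNAI1 and ZEB1, repressors of CDH1, passed in neither comparison, and SNAI2, ZEB2, TWIST1 and TWIST2 had no row. LGALS1 (galectin-1) rose from 79.5 ± 6.95 CPM to 197 ± 38.1 and 234 ± 12.5 CPM (SD, n = 3, edgeR adjusted p = 0.00011 and 1.08e-05). MMP14, a membrane protease, rose from 3.79 ± 0.568 CPM to 8.42 ± 2.31 and 15.1 ± 0.807 CPM (SD, n = 3, edgeR adjusted p = 0.0479 and 0.000348). S100A4 was at 11.4 ± 1.63 CPM in sgCtrl and rose to 23.9 ± 5.09 CPM with sgKeap1-2 (SD, n = 3, edgeR adjusted p = 0.00967). With sgKeap1-1 S100A4 was at 18.8 ± 3.78 CPM (edgeR adjusted p = 0.124). TAGLN (transgelin), an actin-binding protein, fell from 54.3 ± 5.39 CPM to 24.6 ± 4.03 and 17.3 ± 8.22 CPM (SD, n = 3, edgeR adjusted p = 0.0424 and 0.00289). With sgKeap1-1 the call of MMP14 was lost with any library left out other than the second of sgKeap1-1 or the third of sgKeap1-2 (adjusted p = 0.0603 to 0.17) and by limma-voom (0.121), DESeq2 (0.0552), no scaling (0.0512), a minimum of 10 counts (0.0516) and only the 2 groups compared (0.0785). That of TAGLN was lost with any left out other than the second or the third of sgKeap1-2 (adjusted p = 0.0567 to 0.141), with no scaling (0.0522) and with that minimum (0.0522). The sgKeap1-2 call of S100A4 was lost without the first sgKeap1-2 library (0.0539).
Of the hepatocyte markers, 28 were tested. The sgKeap1-1 comparison called 1 higher and 8 lower, and the sgKeap1-2 comparison 1 higher and 10 lower. These were 32.1% and 39.3% of the 28, where 3.94% and 10.2% of all tested features were called, 1.28% and 4.5% of them lower. The 8 lower with sgKeap1-1 became 3 without its first library, 4 without the first sgCtrl library and 5 without its second library. With the replicate block 2 were higher (APOA2 in addition) and 10 lower. ALB, serum albumin, fell from 13450 ± 2590 CPM to 6294 ± 1210 and 4262 ± 835 CPM (SD, n = 3, edgeR adjusted p = 0.00257 and 4.58e-05), whereas TTR, the thyroxine carrier, rose from 381 ± 50.5 to 591 ± 97.98 and 599 ± 82.5 CPM (SD, n = 3, edgeR adjusted p = 0.029 and 0.0128). The TTR call with sgKeap1-1 was lost without the first or the third sgCtrl or the first or the second sgKeap1-1 library (adjusted p = 0.108 to 0.167), and that with sgKeap1-2 without the first or the third sgCtrl library (0.0522 and 0.0791). APOC3, an apolipoprotein, fell from 329 ± 70.5 to 140 ± 23.8 and 124 ± 47.1 CPM (SD, n = 3, edgeR adjusted p = 0.0157 and 0.00401), and FGG, a fibrinogen chain, fell with sgKeap1-2 from 1320 ± 191 to 586 ± 219 CPM (SD, n = 3, edgeR adjusted p = 0.0208). With sgKeap1-1 FGG was at 951 ± 197 CPM (edgeR adjusted p = 0.482). The sgKeap1-1 call of APOC3 was lost without the first sgCtrl or the first or the second sgKeap1-1 library (0.051 to 0.0825), and the FGG call without the first or the second sgCtrl library (0.0766 and 0.0502). Summed over the list, hepatocyte markers were at 42813 to 54241 CPM in sgCtrl, 31995 to 40633 CPM in sgKeap1-1 and 28932 to 32879 CPM in sgKeap1-2, and the part of this in the markers above was not tested.

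**Figure D4:**
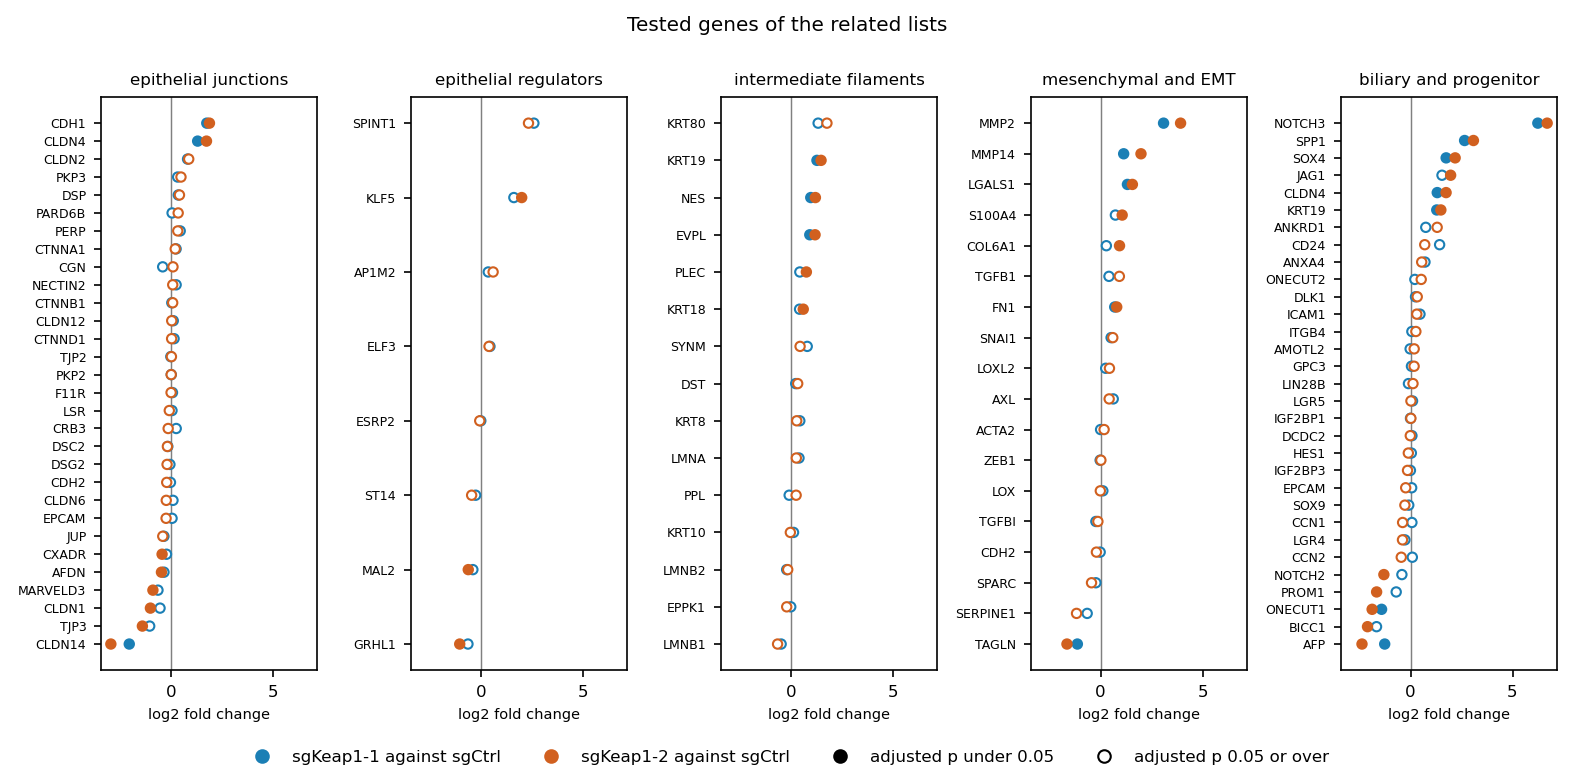
Log2 fold change (horizontal axes, same scale) of every tested gene of 5 lists with sgKeap1-1 and sgKeap1-2 against sgCtrl, filled where the edgeR adjusted p without the block is under 0.05. Calls lie only above 0 among intermediate filaments and on both sides of 0 in each of the other lists, and the fitted values of NOTCH3, MMP2 and SPINT1, with at most 3 counts in any sgCtrl library, depend on the prior count of the fit.

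Compared directly, the guides could not be told apart at any marker. Of the 9, 0 passed between sgKeap1-2 and sgKeap1-1 by edgeR's test, where 0.017% of all tested features passed, and 2 had an unadjusted p under 0.05. These were CLDN1, lower with sgKeap1-2 (log2 fold change -0.47, 95% interval -0.82 to -0.12, adjusted p = 0.918), and EPCAM, also lower (-0.29, 95% interval -0.58 to -0.01, adjusted p = 0.976). DESeq2 and limma-voom called 0 of the 9 as well. The largest difference upward was in SPP1 (0.43, 95% interval -0.18 to 1.04) and CD24 was lower with sgKeap1-2 by a value that rested on the first sgKeap1-1 library (-0.73, 95% interval -1.58 to 0.12, and -0.28 without that library). For KRT19 and CDH1 the differences were 0.20 (95% interval -0.22 to 0.62) and 0.13 (95% interval -0.42 to 0.68).

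For each marker called with both guides, the 3 genes with the closest pattern over the 9 libraries were taken by Pearson correlation of log2 CPM among 8600 features with a mean of at least 10 CPM. They were MIR4435-2HG (r = 0.987), MAPK13 (r = 0.986) and ARF3 (r = 0.984) for KRT19. For CDH1 they were INHBB (r = 0.964), LGALS3 (r = 0.963) and TXNRD1 (r = 0.962). For SPP1 they were PALLD (r = 0.998), ITPR3 (r = 0.993) and ABHD4 (r = 0.988). The points share their libraries and groups, so any gene with a like step between sgCtrl and KEAP1 KO libraries scores high.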

How the data were processed

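RNA from 9 HepG2 libraries was read at the 3′ end (QuantSeq, single-end). The authors deposited whole-number read counts per Entrez gene, and the submitters' processing notes list FastQC 0.72, cutadapt 1.16, STAR 2.7.5b, featureCounts 1.6.3 and limma 3.40.6. The methods name GRCh37 and the submitters' processing notes hg38, so no read coordinates are given. The annotation, strand setting and low-count filter are not given in the sources used here, and each of the 12798 features passed 0.5 CPM in 3 or more libraries. Rows with no Entrez number took 1.34% of reads.

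Groups and replicate numbers came from the sample titles. Features passing filterByExpr (11788) were scaled by TMM and tested with edgeR's quasi-likelihood test (edgeR 4.0.16, R 4.3.3, robust) in one fit of the 3 groups, where the authors used limma-voom. P-values were adjusted by Benjamini-Hochberg over all tested features, with a threshold of 0.05, and rows were matched to symbols through RefSeq. Standard errors are the log2 fold change over the square root of F, and 95% intervals use the t distribution of that fit and cover the spread between libraries. Log2 CPM used a prior count of 2. Single ratios were compared by exact permutation.

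The members and gene lists were chosen with earlier results of these data known. Named genes were all members, KEAP1, NQO1 and, per list, up to 3 with the largest rise and up to 3 with the largest fall with sgKeap1-2 among those called with it and with a mean of at least 10 CPM in a group, and the 3 genes most like each member called with both guides. Genes named besides, such as CDH2, SNAI1, SNAI2, ZEB2, ZEB1, FN1, MMP2, COL6A1, PLEC, TJP3, AFDN, CXADR, ITGB1, ITGB5 and the lamins, are outside the rule and were picked with their values known. The alternatives tried were blocking on replicate number, size factors from DESeq2, no scaling, limma-voom (limma 3.58.1), DESeq2 1.42.0, other count filters, only the 2 groups compared, and leaving out libraries. The block on replicate number was fitted over all 9 libraries at once, so the sgKeap1-2 libraries also entered its estimate. Its results are given beside the main fit for sgKeap1-1 against sgCtrl, where all 3 same-numbered pairs correlated above 0.1 (0.156 to 0.366). This was settled per comparison after the fits had been seen, and the fit without the block remained the main one. The edgeR, limma-voom and DESeq2 fits were run on simulated counts with known changes placed in the sgKeap1-2 libraries only. No replicate effect was simulated, so that run does not check the calls that the block added.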

Additional observations from a re-analysis of the deposited data

How the results depend on the processing

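KRT19, CDH1 and SPP1 with both guides and CLDN1 with sgKeap1-2 were called under every alternative run. Of the markers, 3 were called with sgKeap1-1, against 5 by DESeq2, and leaving out 1 library gave 3 to 6. KRT8 and CD24 passed by DESeq2 (adjusted p = 0.039 and 0.0332) and without sgKeap1-1 replicate 2 (0.044 and 0.0238), and KRT8, KRT18 and CLDN1 passed without sgKeap1-2 replicate 3 (0.0331, 0.0283 and 0.0335). With sgKeap1-2 the count was 5, or 4 without sgCtrl replicate 1. CD24 had no value with at least 10 counts required in every library, and it passed with sgKeap1-1 (adjusted p = 0.0498) without all libraries numbered 2, a setting chosen after seeing the data. In that setting the calls of EVPL (0.346), CLDN14 (0.0565), MMP14 (0.0682), TAGLN (0.17) and APOC3 (0.194) with sgKeap1-1 and of ITGAV (0.0552), MARVELD3 (0.0511), GRHL1 (0.082), APOC3 (0.0887) and FGG (0.0741) with sgKeap1-2 were lost.

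Among all features, 465 were called with sgKeap1-1 and 282 to 703 with 1 library left out (282 without sgCtrl replicate 1, 294 without sgKeap1-1 replicate 1, 295 without sgCtrl replicate 3, 703 without sgKeap1-2 replicate 3). With sgKeap1-2, 1204 were called and 764 to 1295 with 1 left out (764 without sgCtrl replicate 1, 770 without sgCtrl replicate 3). Between guides, 2 were called, 19 by DESeq2, 0 by limma-voom, 0 with only the 2 groups compared and 0 to 2 with 1 library left out. Under the replicate block the counts were 988, 1976 and 25 features and, for the markers, 7, 5 and 0, the 7 adding KRT8, KRT18, CLDN1 and CD24. Over all 9 same-numbered pairs the mean correlation was 0.219 (-0.0266 to 0.502), against -0.11 in 18 other pairs, and 14 of 18 lookups matched best with their own number. For sgKeap1-2 and between guides the pairs did not all exceed 0.1, and there the block result stands here alone. It changed no marker call there. Among the lists with sgKeap1-2 it moved the calls from 6 higher and 5 lower to 10 and 6 for bile duct and progenitor genes, from 2 and 6 to 4 and 7 for junctions, from 1 and 2 to 2 and 2 for epithelial regulators, from 1 and 10 to 2 and 14 for hepatocyte markers, from 5 and 0 to 7 and 1 for intermediate filaments (LMNB1 lower, adjusted p = 0.0041) and from 2 and 0 to 3 and 0 for SPP1 with its partners (ITGB1 higher, 0.0104), and left the mesenchymal list at 6 and 1.

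With 1 library left out, the log2 fold change of SOX9 with sgKeap1-1 ran from -0.21 to 0.038, that of KEAP1 with sgKeap1-2 from -0.11 to 0.12 (-0.02 without sgKeap1-2 replicate 2), that of CDH2 with sgKeap1-1 from -0.0884 to 0.0131 (0.0021 and 0.0033 without replicate 1 of sgCtrl or sgKeap1-1, 0.0071 without sgKeap1-1 replicate 3), that of CDH1 between guides from -0.0099 to 0.24, and the KRT8 to KRT18 difference with sgKeap1-1 from -0.0615 to 0.0632 (-0.0239 without sgCtrl replicate 2). The cause was not tested for any of these.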

Other observations

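In both KEAP1 KO groups the library with the highest SPP1 had the lowest KRT19. In sgKeap1-1 this was replicate 2, with 1415 CPM of SPP1 and 419 CPM of KRT19, and in sgKeap1-2 it was also replicate 2, with 1866 and 482 CPM. In sgCtrl, replicate 2 had 192 CPM of SPP1 and 239 CPM of KRT19, between the other two for KRT19. Among pairs of libraries of 1 group, those of replicates 2 and 3 with sgKeap1-2 differed most over all genes (chi-square statistic per degree of freedom 23.7, against 4.68 to 17.3 for the other 8 pairs). This pattern was noticed after the values were seen, it rests on 9 libraries and was not tested.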
